A study of Mus musculus with 6 samples.

Results

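Transcripts of 10 genes of the Wnt and beta-catenin pathway were examined in subcutaneous tumours of Hep1-6, a hepatoma line of the mouse, in C57BL/6J hosts. The genes were Ctnnb1, Apc, Axin1, Axin2, Lgr5, Rnf43, Znrf3, Nkd1, Notum and Tcf7l2, chosen by name, and all 10 were found among the 34745 genes of the deposited table. The 2 groups of 3 tumours differed in what the hosts were fed. Tumours ND 1 to ND 3 came from hosts on a normal diet and tumours HCD 1 to HCD 3 from hosts on a diet high in cholesterol, and values below are listed in that order. All hosts received the same cell line, cultured in DMEM with serum before injection, and no other treatment is given in the labels. A single cell line stands behind all 6 tumours, and each piece of tissue also holds host cells. The ages of the mice, and whether each tumour came from a different animal, are not stated in the labels, and every p-value rests on the scatter among these samples, which may be technical.

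Without a Wnt signal, beta-catenin (Ctnnb1) is bound by a destruction complex built on Axin and Apc, phosphorylated and degraded. When a Wnt ligand engages a Frizzled receptor and its co-receptor Lrp5 or Lrp6, the complex is inhibited, beta-catenin accumulates, and it activates transcription together with TCF/LEF factors such as Tcf7l2. Several target genes restrain the pathway in turn: Axin2 in the destruction complex, Nkd1 at Dishevelled, Rnf43 and Znrf3 at the receptors, and Notum outside the cell. In liver the pathway sets the pericentral programme of hepatocytes, and its activation by mutation is frequent in liver cancer. These are statements about protein activity and are background here, since only RNA was measured.

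Levels are given as FPKM, the fragments of a gene scaled to its length and to the size of the library. Library sizes read from the steps of these values lay between 20351638 and 26228074 fragments. Among the 6 genes whose recovered length matched the annotation, reads per library ran from 39 for Notum to 7911 for Axin2. Alb, the hepatocyte albumin, was at 1176 to 1672 FPKM and the fetal liver marker Afp at 109 to 197 FPKM, while Apoh and Serpina1a, both hepatocyte secretory genes, stayed at or below 0.176 FPKM. RNA of other tissue differed between libraries. The summed level of 6 skeletal muscle markers, highest for Acta1, was 674 FPKM in ND 2, 791 FPKM in HCD 1, 74.9 FPKM in HCD 2 and 4.84 to 11.2 FPKM in the other libraries. In such bulk tissue, fewer cells of a type and less RNA per cell cannot be told apart.

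All 10 genes were detected in every tumour, at levels that spanned more than an order of magnitude. By deposited FPKM, Nkd1 and Ctnnb1 were highest, with means over the 6 libraries of 77.6 and 62.6 FPKM, and Tcf7l2 and Notum were lowest, at 2.82 and 1.84 FPKM. For 67.4% of the tested genes with recovered reads the values gave whole reads at a length equal to the summed distinct exons of the gene in GENCODE M21, in which overlapping exons enter more than once. At such a length, genes with many transcript forms are scaled down. The annotation release and the lengths the authors used are not stated, and for the remaining genes the length is not settled. On the scale of reads per kilobase of the merged exons of GENCODE M21, the order was Ctnnb1 (118 ± 13.1), Nkd1 (75.9 ± 17.5), Axin2 (53.0 ± 6.30), Rnf43 (22.8 ± 3.59), Axin1 (20.3 ± 0.713), Lgr5 (17.1 ± 1.57), Znrf3 (16.2 ± 2.00), Apc (8.67 ± 0.331), Tcf7l2 (7.06 ± 0.696) and Notum (2.72 ± 1.77), each scaled to library size (SD over the 6 libraries). The ranges over libraries overlapped for the neighbours Nkd1 and Axin2, and along the run Rnf43, Axin1, Lgr5 and Znrf3. For the other neighbours in that order they did not overlap. The recovered length equalled the summed distinct exons of M21 for 6 of the 10 genes. It differed for Ctnnb1, Nkd1, Apc and Tcf7l2, and the place of Ctnnb1, Apc and Tcf7l2 on the second scale is approximate. The Nkd1 length is known only up to a whole factor, which multiplies its level on that scale. Its place against Ctnnb1 and Axin2, and the overlap of their ranges, is therefore open.

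**Figure D1:**
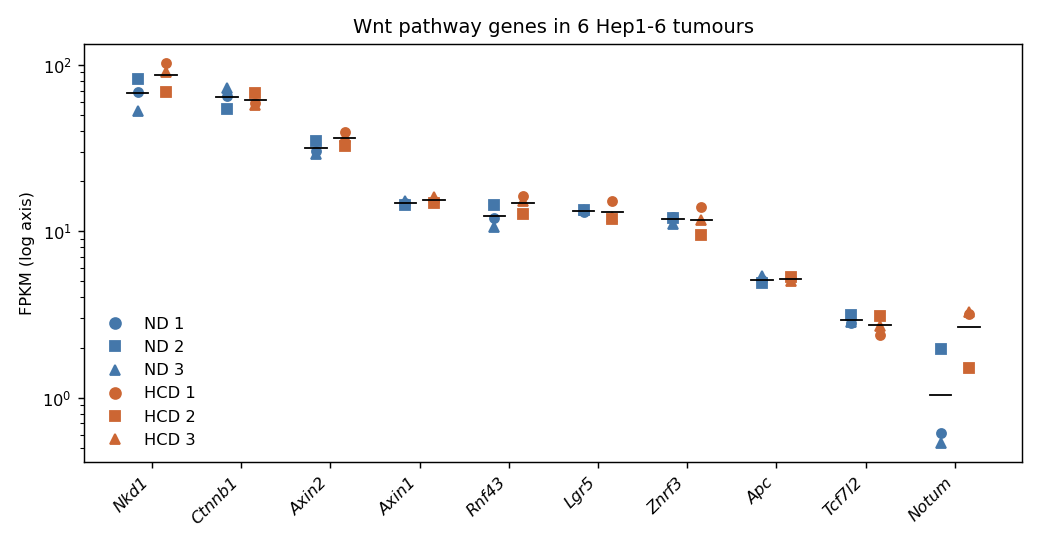
Levels of the 10 genes in each tumour library, in FPKM on a log axis, sorted by mean. Blue symbols are the 3 ND and orange symbols the 3 HCD libraries, and black bars are group means. The points of the 2 diets overlap for every gene, and the widest spread is that of Notum, from 0.532 to 3.26 FPKM.

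Ctnnb1 (chromosome 9, 120929216 to 120960507, plus strand, in GENCODE M21 on GRCm38), the gene of beta-catenin itself, read 65.4, 54.3 and 72.5 FPKM under the normal diet, and 58.9, 67.3 and 57.1 FPKM under cholesterol. ND 3 was highest and ND 2 lowest, so the HCD values lay inside the ND range. Apc (chromosome 18, 34220924 to 34322552, plus strand), the large scaffold that holds beta-catenin in the destruction complex, read 5.10, 4.88 and 5.39 FPKM, then 5.24, 5.31 and 4.999 FPKM with cholesterol. Axin1 (chromosome 17, 26138688 to 26195811, plus strand), the constitutively made scaffold of that complex, read 14.9, 14.5 and 15.3 FPKM, then 15.2, 14.9 and 16.02 FPKM with cholesterol. Apc and Axin1 were the steadiest of the 10 genes, with coefficients of variation over the 6 libraries of 3.82% and 3.51%, against 11.1% for Ctnnb1. Their groups overlapped too.

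Tcf7l2 (chromosome 19, 55741820 to 55933654, plus strand), a DNA-binding partner of beta-catenin, read 2.79, 3.13 and 2.84 FPKM in the ND tumours. The HCD tumours read 2.37, 3.09 and 2.69 FPKM, with HCD 1 lowest of all. Other members of its family differed widely in level. Tcf7 had a mean of 38.4 FPKM, and its lowest library (31.9 FPKM) lay above the highest Tcf7l2 library (3.13 FPKM). On merged exons the means were 49.0 for Tcf7 and 7.06 for Tcf7l2. Lef1 and Tcf7l1 lay below the level for testing, a mean of 0.5 FPKM, at no more than 0.0957 and 0.565 FPKM in any library.

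At the receptors, Lgr5 (chromosome 10, 115450311 to 115587780, minus strand), an R-spondin receptor and stem cell marker, read 13.1, 13.4 and 13.4 FPKM in the ND tumours. The HCD tumours read 15.3, 11.9 and 12.1 FPKM, so HCD held both the highest and the lowest library. Znrf3 (chromosome 11, 5276324 to 5444847, minus strand), a ubiquitin ligase that removes Frizzled from the membrane, followed a similar spread, with ND values of 12.2, 12.1 and 11.01 FPKM and HCD values of 13.9, 9.55 and 11.6 FPKM. HCD 1 was again highest and HCD 2 lowest. Rnf43 (chromosome 11, 87662722 to 87735539, plus strand), the paralogue of Znrf3 with the same function, had ND values of 11.97, 14.4 and 10.7 FPKM and HCD values of 16.4, 12.7 and 15.2 FPKM. Here HCD 1 and HCD 3 lay above all ND libraries, and HCD 2 lay below ND 2.

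The intracellular and secreted feedback inhibitors had the same 3 libraries on top. Axin2 (chromosome 11, 108920349 to 108950783, plus strand), the inducible scaffold that serves widely as a readout of the pathway, had ND values of 30.2, 35.1 and 29.3 FPKM and HCD values of 39.7, 32.6 and 37.1 FPKM. Nkd1 (chromosome 8, 88521354 to 88594884, plus strand), which binds Dishevelled, had ND values of 69.2, 81.7 and 52.5 FPKM and HCD values of 103, 68.3 and 91.0 FPKM. Notum (chromosome 11, 120653788 to 120661175, minus strand), a secreted enzyme that strips the lipid from Wnt ligands, had ND values of 0.615, 1.96 and 0.532 FPKM, from 50, 183 and 39 reads. Its HCD values were 3.19, 1.502 and 3.26 FPKM, from 231, 109 and 242 reads. In all 3 genes HCD 1 and HCD 3 were the 2 highest libraries, ND 2 came next and ND 3 was lowest. In all 3 genes ND 2 lay above HCD 2, so the groups overlapped, and for Nkd1 ND 1 also lay above HCD 2.

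The sequence before the start site is shown for Axin2, Nkd1 and Rnf43, which were high and low in the same libraries, and for Tcf7l2, the gene with a TCF word in its window. RefSeq start sites were given for 5 of the 10 genes, in 8 windows (GRCm38.p6). The 250 bases before each were searched on both strands for 4 spellings of the TCF/LEF core: the word CTTTGAA, then the word CTTTGAT, then the word CTTTGTA, and last the word CTTTGTT. Matches are in capitals, and lower case marks the rest. All are on the plus strand, at chr11:108920099-108920348 for Axin2, chr8:88527383-88527632 for Nkd1, chr11:87662837-87663086 for Rnf43 and chr19:55895071-55895320 for an inner start of Tcf7l2. The Nkd1 start also lies well inside the gene, which begins at 88521354 in GENCODE M21. The other windows, of Ctnnb1, Rnf43 and Tcf7l2, are not shown.
Axin2: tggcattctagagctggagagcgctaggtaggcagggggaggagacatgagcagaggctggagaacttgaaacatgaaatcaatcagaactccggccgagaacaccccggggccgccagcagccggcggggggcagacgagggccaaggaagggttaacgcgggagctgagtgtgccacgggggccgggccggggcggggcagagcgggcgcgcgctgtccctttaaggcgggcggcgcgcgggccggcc
Nkd1: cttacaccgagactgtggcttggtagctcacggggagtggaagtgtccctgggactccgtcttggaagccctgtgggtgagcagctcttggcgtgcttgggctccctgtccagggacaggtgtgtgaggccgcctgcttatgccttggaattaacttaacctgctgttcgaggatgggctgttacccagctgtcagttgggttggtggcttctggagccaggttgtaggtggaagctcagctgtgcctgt
Rnf43: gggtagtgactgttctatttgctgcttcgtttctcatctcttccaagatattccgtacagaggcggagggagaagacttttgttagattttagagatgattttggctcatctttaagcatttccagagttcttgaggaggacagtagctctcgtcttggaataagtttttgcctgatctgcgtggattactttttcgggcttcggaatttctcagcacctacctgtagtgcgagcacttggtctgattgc
Tcf7l2: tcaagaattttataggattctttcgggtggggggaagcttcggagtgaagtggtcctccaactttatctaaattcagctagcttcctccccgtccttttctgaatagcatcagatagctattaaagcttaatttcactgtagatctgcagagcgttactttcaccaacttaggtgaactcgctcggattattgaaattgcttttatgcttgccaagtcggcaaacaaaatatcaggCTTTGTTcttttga
Of the 8 windows 1 held a match, the inner Tcf7l2 window, with CTTTGTT on the plus strand from 14 to 8 bases before the start. Across all 32851 RefSeq windows of that length 14.8% held at least 1. The windows of Axin2, Nkd1 and Rnf43 do not hold these letters, which says nothing of sites elsewhere in those genes.

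The comparison of HCD with ND asks whether dietary cholesterol of the host goes with a change in these transcripts. None of the 10 genes was called by limma at an adjusted p of 0.05, where the share called among all 13417 genes tested was 0.0%. A difference is the HCD mean minus the ND mean of log2(FPKM + 1). It was above 0 for 6 of the 10 and below 0 for 4, with a median of 0.03, against 0.02 over all genes tested. The groups did not overlap in 0 of the 10 genes, against 12.1% of all genes tested. Notum alone had an unadjusted limma p under 0.05, a level that 5.88% of all genes tested reached, 2.56% with a higher and 3.32% with a lower mean under cholesterol.

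Among the 10 genes the largest differences were those of Notum, Nkd1, Rnf43 and Axin2. Mean Notum was 1.04 ± 0.804 FPKM for ND against 2.65 ± 0.995 FPKM for HCD (SD, n = 3), a log2 difference of 0.87 (95% interval 0.08 to 1.65, limma adjusted p = 0.794). For Nkd1 the group means were 67.8 ± 14.6 and 87.3 ± 17.5 FPKM (SD, n = 3), and the log2 difference was 0.36 (interval -0.14 to 0.86). Rnf43 had 12.3 ± 1.86 and 14.7 ± 1.86 FPKM (SD, n = 3) and a log2 difference of 0.24 (interval -0.07 to 0.56). Axin2 had 31.5 ± 3.13 and 36.4 ± 3.57 FPKM (SD, n = 3) and a log2 difference of 0.20 (interval -0.04 to 0.45). All 4 had a limma adjusted p of 0.794, and none of these differences passed the test. Because Notum is low, the added 1 compresses its value: the log2 difference was 1.42 with a pseudocount of 0.1 and 1.47 by limma-voom on recovered reads. The Nkd1 difference was 0.19 without ND 3 and 0.24 without HCD 1, and that of Rnf43 was 0.15 without ND 3.

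The other 6 genes differed by less than 0.1 on the log2(FPKM + 1) scale. The difference was -0.06 for Ctnnb1 (interval -0.35 to 0.23), 0.01 for Apc (interval -0.14 to 0.17) and 0.04 for Axin1 (interval -0.09 to 0.18). It was -0.03 for Lgr5 (interval -0.27 to 0.21), -0.02 for Znrf3 (interval -0.34 to 0.29) and -0.08 for Tcf7l2 (interval -0.30 to 0.15). Limma adjusted p-values of these 6 genes lay between 0.860 and 0.971. The intervals of Apc and Axin1 are the narrowest of the 10. On the log2(FPKM + 1) scale a change of either by more than 0.18 lies outside them. The Axin1 difference was 0.015 without HCD 3 and 0.026 without ND 2, and that of Tcf7l2 was -0.011 without HCD 1 and 0.027 without ND 2 and HCD 1 together. Tcf7l2 is low too, and its difference was -0.106 with a pseudocount of 0.1 and -0.112 by limma-voom on recovered reads. The sign of the Ctnnb1 difference turned without ND 3 (0.03), that of Lgr5 without HCD 2 (0.03) or HCD 3 (0.01), and that of Znrf3 without HCD 2 (0.10) or ND 1 (0.004). That of Apc turned without ND 2 (-0.01) or HCD 2 (-0.0005).

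**Figure D2:**
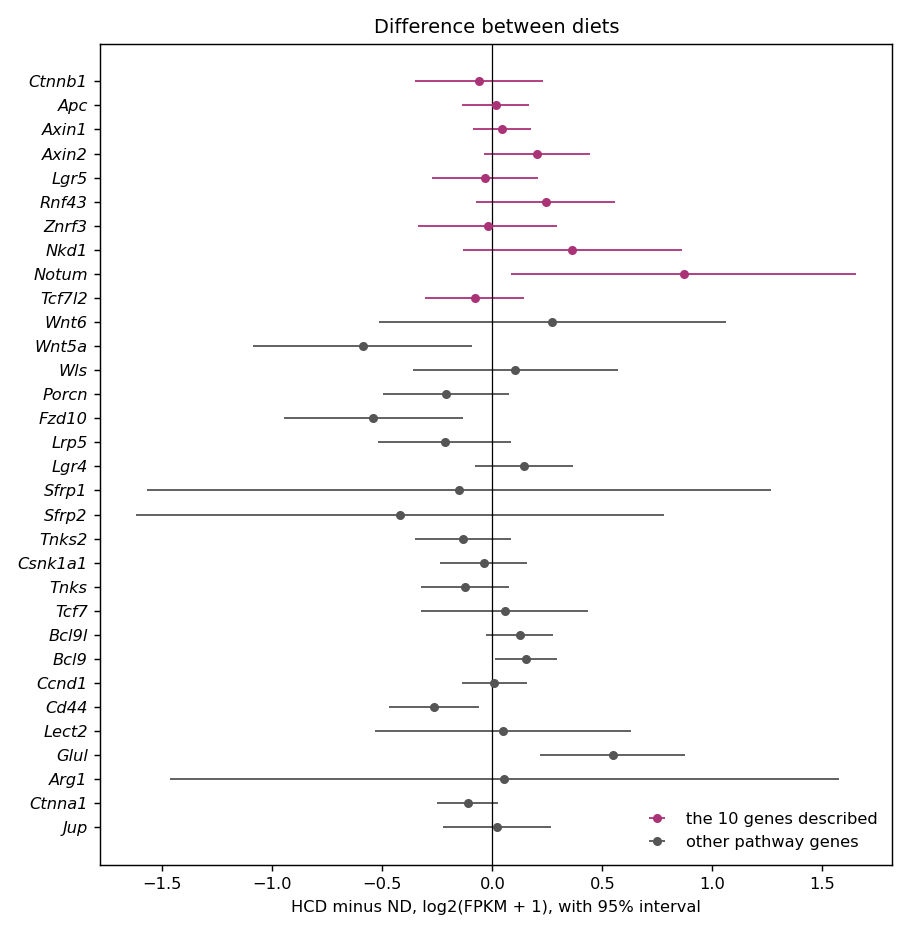
HCD mean minus ND mean of log2(FPKM + 1), with the 95% interval of the limma fit, for the 10 genes (purple) and 22 further pathway genes (grey). The interval of Notum, 0.08 to 1.65, lies above 0 before adjustment, and the narrowest intervals of the 10 are those of Axin1 and Apc.

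Variation over the 6 libraries, within diets as well as between them, followed a similar order in 4 genes. In order of Axin2 the libraries were HCD 1, HCD 3, ND 2, HCD 2, ND 1 and ND 3, and Rnf43 had exactly this order. Notum differed from it only in placing HCD 3 before HCD 1, and Nkd1 only in placing ND 1 before HCD 2. From the lowest to the highest library Axin2 varied 1.35-fold, Rnf43 1.53-fold, Nkd1 1.95-fold and Notum 6.12-fold. Across the 6 libraries, on the log2(FPKM + 1) scale, Pearson's r among the 6 pairs of these genes ranged from 0.914 to 0.987 and Spearman's rho from 0.886 to 1. All 45 pairs of the 10 genes were computed, each with an exact two-sided permutation p and Benjamini-Hochberg adjustment over the 45. By r, 3 pairs passed at 0.05, namely Rnf43 with Axin2, Nkd1 and Notum (exact permutation p = 0.00278 and adjusted p = 0.0417 each). By rho 0 pairs passed, and the lowest adjusted p was 0.125 (exact permutation). Without the 2 libraries farthest from the median of the first gene, r among the 6 pairs was 0.875 to 0.990. These libraries share the diet difference and the tissue composition of each tumour, and a shared order is a description of these 6 libraries. Sharing within a diet was not tested apart from the diet difference.

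Ctnnb1 ran the other way. Its 3 lowest libraries, ND 2, HCD 3 and HCD 1, were the 3 highest for Axin2, Rnf43, Nkd1 and Notum. Pearson's r of Ctnnb1 with Axin2, Rnf43, Nkd1 and Notum lay between -0.856 and -0.789, and rho between -0.771 and -0.714 (exact permutation p by r from 0.0319 to 0.0903, adjusted p from 0.205 to 0.339). None of the 4 pairs passed. Without the 2 farthest libraries, ND 3 and ND 2, r lay between -0.911 and -0.844. Apc followed Ctnnb1 in rank (rho = 0.943, exact permutation p = 0.0167, adjusted p = 0.125), with r = 0.855, and r fell to 0.562 without ND 3 and ND 2. Lgr5 and Znrf3 had r = 0.831 and rho = 0.600 (exact permutation p = 0.0625 by r and 0.242 by rho, adjusted p = 0.281 and 0.640). That relation rested on HCD 1 and HCD 2, since r was -0.025 without them.

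**Figure D3:**
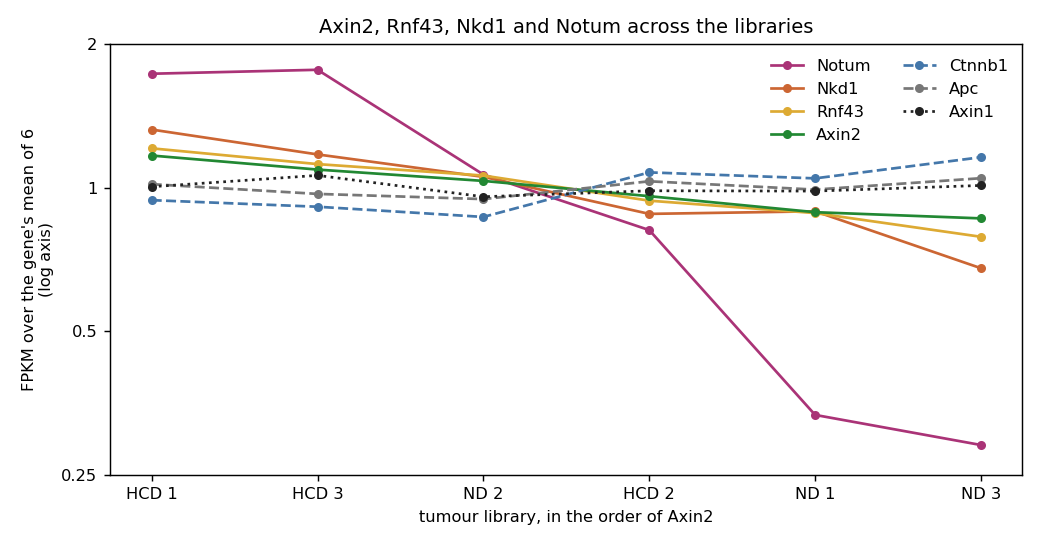
Level of 7 genes in each library divided by the gene's mean over the 6 libraries, on a log axis, with libraries in the order of Axin2. Solid lines are Notum, Nkd1, Rnf43 and Axin2. They are higher in the 3 libraries at the left (Notum at 1.73, 1.77 and 1.06) than in the 3 at the right (Notum at 0.814 to 0.289). Ctnnb1 and Apc are dashed. Ctnnb1 is at 0.941, 0.912 and 0.868 at the left and at 1.08, 1.05 and 1.16 at the right. Axin1, dotted, stays near 1.

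Markers of other cell types also differed between these libraries. The summed level of 6 neutrophil markers, with S100a9 the most abundant, was 96.3, 40.02 and 101 FPKM for ND and 39.2, 39.6 and 38.4 FPKM for HCD, so the libraries with the highest sums, ND 1 and ND 3, were those lowest in Notum and Axin2. Of the 5 neutrophil markers tested 5 had a lower mean under cholesterol, against 5942 of all 13417 genes tested. Of these 5 markers 2 had no overlap between groups, against 6.13% of all genes tested with that direction, and 0 were called. Macrophage, T cell, endothelial and muscle markers, 6 tested in each list, had higher means under cholesterol in 6 of 6, against 7475 of all 13417 genes tested, and 0 were called. Markers within a list can move together, so these counts are not independent observations. Skeletal muscle markers were highest in ND 2 and HCD 1, which are among the 3 libraries highest in Axin2, Rnf43, Nkd1 and Notum, but at 6.04 FPKM in HCD 3, the remaining one. Without ND 2 and HCD 1 the log2 differences of Notum, Nkd1, Rnf43 and Axin2 were 1.05, 0.38, 0.27 and 0.22. The summed level of 7 hepatocyte and hepatoblast markers, led by Alb, ranged from 1683 to 2051 FPKM in ND and from 1548 to 2189 FPKM in HCD. Summed macrophage markers, led by Lyz2, ranged from 228 to 551 FPKM in ND and from 374 to 915 FPKM in HCD. T cell markers, led by Cd3g, summed to 4.80 to 18.9 FPKM for ND and 16.04 to 39.6 FPKM for HCD. Endothelial markers, led by Plvap, summed to 52.1 to 65.5 and 62.9 to 112 FPKM, and fibroblast markers, led by Dcn, to 911 to 1110 and 824 to 1019 FPKM. Adipocyte markers, led by Car3, summed to 1.03 to 13.9 FPKM in ND and 0.661 to 49.1 FPKM in HCD, and skin markers, led by Dsp, to 26.3 to 30.3 and 22.7 to 39.99 FPKM. No marker but the skin gene Lor was at 0 in all 6 libraries. The part of these cell types in the results was not tested.

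The genes whose pattern over the 6 libraries was most like that of Axin2 were not pathway genes. By Pearson's r on the log2(FPKM + 1) scale they were Psmb5 (0.996), Mat2a (0.995), Dhx30 (0.994), Ppp1r7 (0.994) and Fahd1 (0.992). Rnf43 ranked 10, Notum 25 and Nkd1 66 among the 13416 other genes tested. An r of 0.9 or more was reached by 266 genes, or 1.98%, and the median r was 0.0996. Tbx3, a transcription factor and liver target, had r = 0.909, and Lgr5, Axin1 and Znrf3 had r of 0.341, 0.264 and 0.534. The target genes Glul, Lect2, Ccnd1 and Cd44, described below, had r of 0.860, 0.565, 0.336 and -0.904, so targets outside the 10 did not share a pattern.

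The wider pathway was described with 110 further genes in 11 lists ordered by role. Of these, 60 reached the level for testing and 0 were called, with 30 means higher and 30 lower under cholesterol and a median log2 difference of -0.003. The groups did not overlap in 8 of the 60, 4 higher and 4 lower, against 5.98% higher and 6.13% lower over all genes tested. An unadjusted limma p under 0.05 was reached by 7 of the 60, against 5.88% of all genes tested.

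Among ligands, 16 of 19 Wnt genes lay below the level for testing, and 3 were tested with 1 mean higher and 2 lower. Wnt6, a ligand of epithelial tissues, had ND values of 21.9, 19.9 and 15.6 FPKM and HCD values of 39.0, 15.5 and 20.3 FPKM, with HCD 1 far above the rest (log2 difference 0.27, -0.09 without HCD 1). Wnt5a, a ligand known mainly for beta-catenin-independent signalling, had ND values of 11.8, 7.28 and 11.2 FPKM and HCD values of 7.67, 6.24 and 5.06 FPKM. ND 1 and ND 3 lay above all other libraries, and the groups overlapped through ND 2 (log2 difference -0.59, interval -1.09 to -0.09, limma adjusted p = 0.794), and the difference was -0.92 without ND 2 and HCD 1 together. Porcn, which attaches the lipid to Wnt ligands, and Wls, which carries them to the cell surface, had means of 1.15 and 1.18 FPKM and differences of -0.21 and 0.10. The Porcn difference was -0.36 with a pseudocount of 0.1 and -0.37 by limma-voom on recovered reads, and that of Wls was 0.17 by limma-voom and turned to -0.07 without HCD 2. All 4 R-spondin genes and Lgr6 lay below the level for testing. Lgr4, a receptor of R-spondins like Lgr5, averaged 9.64 ± 0.0480 FPKM for ND and 10.8 ± 1.41 FPKM for HCD (SD, n = 3).

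Of 15 receptor genes 11 were tested, 5 with a higher and 6 with a lower mean. Fzd10, a Frizzled receptor, was among the 2 highest of them, at a mean of 32.8 on merged exons against 33.4 for Lrp5, with ND values of 37.1, 31.1 and 49.8 FPKM and HCD values of 28.7, 25.02 and 25.1 FPKM. All ND libraries lay above all HCD libraries, but the difference of -0.54 (interval -0.95 to -0.13) did not pass the test (limma adjusted p = 0.794), and it was -0.36 without ND 3. Lrp5, a Wnt co-receptor, averaged 29.4 ± 4.48 FPKM for ND and 25.1 ± 2.61 FPKM for HCD (SD, n = 3), and its log2 difference of -0.22 was -0.10 without ND 1. Lrp6 averaged 18.5 ± 0.937 FPKM for ND and 16.9 ± 0.407 FPKM for HCD (SD, n = 3), also without overlap (log2 difference -0.13, limma adjusted p = 0.794). Fzd10 and Lrp6 were the 2 of 11 tested receptors without overlap, both lower, against 6.13% of all genes tested with that direction. Secreted antagonists and Kremen genes were mostly low, with 9 of 14 below the level for testing, 2 means higher and 3 lower. Sfrp1 and Sfrp2, which bind Wnt ligands, had their highest library in HCD 2 (8.89 and 6.99 FPKM) and their lowest in HCD 3 (0.940 and 1.18 FPKM).

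Of the Dishevelled and remaining destruction complex genes 11 of 13 were tested, 4 with a higher and 7 with a lower mean, and the log2 differences lay between -0.13 and 0.09. Tnks2 and Tnks, whose enzymes mark Axin for degradation, had means of 68.6 and 16.9 FPKM and differences of -0.13 each, which were -0.061 and -0.066 without ND 1. The Tnks2 difference was also smaller without HCD 2, at -0.067, and without ND 2 and HCD 1 together the differences were -0.22 each. Csnk1a1, a kinase of the destruction complex, was at 41.3 FPKM with a difference of -0.04. Of the TCF factors and cofactors 10 of 13 were tested, 6 with a higher and 4 with a lower mean. Bcl9 and Bcl9l, which join beta-catenin to its co-activators, averaged 5.75 ± 0.203 and 12.4 ± 0.742 FPKM for ND, and 6.50 ± 0.219 and 13.6 ± 0.396 FPKM for HCD (SD, n = 3). All HCD libraries lay above all ND libraries in both, with differences of 0.15 and 0.12 and a limma adjusted p of 0.794. The same held for Ctnnbip1, at 1.77, 1.58 and 1.88 FPKM for ND and 2.38, 2.32 and 1.90 FPKM for HCD. Its log2 difference of 0.22 was the largest of this list. These were 3 of the 10 tested, against 5.98% of all genes tested with that direction, and 0 were called. The Bcl9l difference was 0.077 without ND 3. The Tcf7 difference was 0.06, and -0.04 without ND 3 or without HCD 3.

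Target genes outside the 10 had means on both sides. Of 7 tested general targets 4 means were higher and 3 lower. Ccnd1, which encodes cyclin D1, averaged 199.6 ± 8.23 FPKM for ND and 201 ± 9.30 FPKM for HCD (SD, n = 3). Cd44, an adhesion receptor, had ND values of 84.5, 77.3 and 83.0 FPKM and HCD values of 60.4, 72.8 and 70.5 FPKM, without overlap (log2 difference -0.27, limma adjusted p = 0.794). Of 9 pericentral liver genes 4 were tested, 3 with a higher mean, and Cyp2e1 and Cyp1a2 were below the level for testing. Glul, the glutamine synthetase of pericentral hepatocytes, had ND values of 47.2, 60.5 and 55.4 FPKM and HCD values of 94.3, 71.8 and 74.0 FPKM. Every HCD library lay above every ND library, with a log2 difference of 0.55 (interval 0.22 to 0.87, limma adjusted p = 0.794). Lect2, a secreted hepatic target, averaged 71.6 ± 5.80 FPKM for ND and 76.9 ± 24.7 FPKM for HCD (SD, n = 3). Of the 6 periportal genes, which the pathway restrains in normal liver, only Arg1 was tested, at 6.49 to 30.6 FPKM over the libraries. Among 5 tested genes of the cadherin complex, the other site of beta-catenin in the cell, 2 means were higher and 3 lower. Ctnna1, the alpha-catenin that ties this complex to actin, averaged 132 ± 6.53 FPKM for ND and 122 ± 2.94 FPKM for HCD (SD, n = 3) without overlap, and Jup differed by 0.02. Neither difference passed the test.

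**Figure D4:**
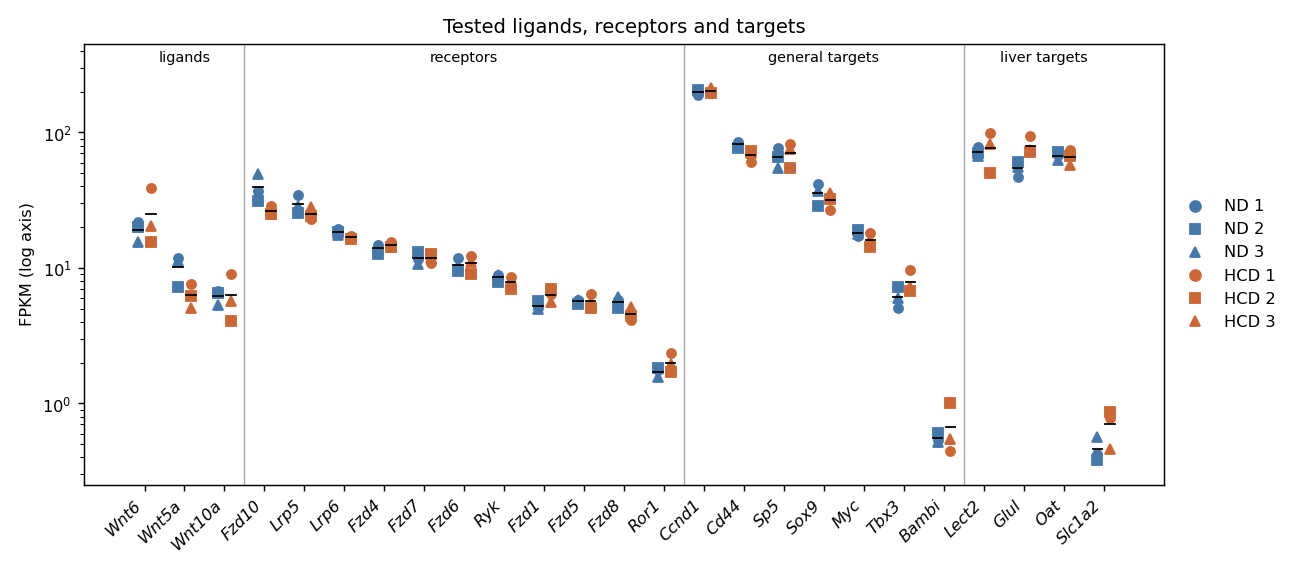
Levels of the tested ligands, receptors, general targets and liver targets in each library, in FPKM on a log axis, with blue symbols for ND, orange symbols for HCD and black bars for group means. Fzd10, Lrp6 and Cd44 have all HCD points below and Glul all HCD points above the ND points, and Wnt6 has a single high library, HCD 1 at 39.0 FPKM.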

How the data were processed

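RNA sequencing was available for 6 tumours, 3 per diet. Per the labels, total RNA was extracted with a column kit and paired-end TruSeq libraries were made. The authors deposited FPKM values for 34745 genes, with no column left unmapped. Of software, mm10 and the tools HTSeq, edgeR, CASAVA 1.8 and TopHat2 2.0.9 stand in the submitters' processing notes, with no step assigned. No source used here states whether strand was kept, so overlapping genes on opposite strands cannot be separated. The values were not counts, so the planned test for normalized values was used. The 13417 genes whose mean reached 0.5 FPKM were fitted with limma 3.58.1 (R 4.3.3) on log2(FPKM + 1), with diet as the only term, a variance trend, p-values two-sided and adjusted by Benjamini and Hochberg, with a threshold of 0.05. The fit was tested on simulated data. The pseudocount understates changes of low genes.

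Reads were recovered as the whole numbers, within 0.02 of a read, that a gene length makes of all 6 values. This succeeded for 99.4% of tested genes, and for 0.0% of 1310 decoy genes whose values were multiplied by random factors. The length nearest to the summed distinct exons of M21 was taken, and it was equal for 67.4%. A single length fitted for 1000 of the 13338 tested genes with recovered reads. Most read numbers therefore rest on that choice, also where the length equalled the M21 sum. Where the length was not equal, as for Ctnnb1, Nkd1, Apc and Tcf7l2, other lengths give whole reads too and the read number is not settled. If all 6 read numbers then shared a factor, the shorter length without that factor was taken, except for genes with few reads. Reads of Nkd1 are known only up to a common factor. Depth was 20351638 to 26228074 fragments, and intervals on differences come from the spread between libraries.

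The members and lists were chosen with earlier results of these data known. Text names the 10 genes and, per list, up to 4 called genes or else the 2 most abundant tested and the one with the lowest p, the 5 genes most like Axin2, and the most abundant marker of each cell type. Apoh, Serpina1a, Afp, Lef1, Tcf7l1, Lgr6, Cyp2e1, Cyp1a2, Tbx3, Lor, Ctnnbip1 and Lrp6 are named outside that rule, after their values were seen. Same-numbered libraries of the 2 diets were not treated as pairs. Alternatives covered the pseudocount, low-value filters, scaling, the replicate number, left-out libraries and limma-voom on recovered reads.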

Additional observations from a re-analysis of the deposited data

How the results depend on the processing

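Across 14 alternatives none of the 10 genes was called (lowest limma adjusted p = 0.543), nor was any further pathway gene. The count of all genes called was 0 higher in each alternative, and 0 lower except without ND 2. Leaving out each library in turn gave 0 higher and 0 to 1 lower. Limma-voom on recovered reads left 714 genes at an unadjusted p under 0.05, against 789 in the fit reported. Notum, Nkd1, Rnf43, Axin2 and Axin1 kept a higher mean in HCD in all 14, and the other 5 of the 10 turned sign in at least 1.

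With the replicate number as a replicate block, 753 genes had an unadjusted p under 0.05 and 0 were called. The labels give no shared litter or day. Deviations of same-numbered libraries correlated at -0.190, 0.142 and 0.059, and those of differently numbered libraries at -0.517 to 0.532. With 3 libraries a group, these values cannot decide whether the numbers pair the samples. The block changed no call.

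Differences that turned sign were as follows, and the cause was not tested. Under median-ratio and upper-quartile scaling Ccnd1 was at -0.0015 and -0.0087. Without ND 2 and HCD 1 together Apc was at -0.022, Tcf7l2 at 0.027, Wnt6 at -0.058, Csnk1a1 at 0.0055, Tcf7 at -0.0103, Lect2 at -0.17 and Jup at -0.024. With single libraries left out, Ctnnb1 ranged from -0.17 to 0.031, Apc from -0.0149 to 0.046, Lgr5 from -0.14 to 0.029, Znrf3 from -0.15 to 0.10, Wnt6 from -0.091 to 0.55, Wls from -0.071 to 0.28, Sfrp1 from -0.67 to 0.51, Csnk1a1 from -0.12 to 0.0087, Tcf7 from -0.042 to 0.19, Ccnd1 from -0.0296 to 0.034, Lect2 from -0.16 to 0.33, Arg1 from -0.32 to 0.72 and Jup from -0.051 to 0.11. Depth limits Notum most, with 39 reads in its lowest library. With 3 libraries a group, an exact permutation test of a single value cannot give a two-sided p below 0.1.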
